A study of Mus musculus with 4 samples.

Results

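Cxcl12, Cxcl13 and the receptors that read them form the homeostatic chemokine axes, and 6 of the 32285 genes counted in these libraries belong to them here: the ligands Cxcl12 and Cxcl13, and the receptors Cxcr4, Ackr3, Cxcr5 and Gpr183. The rows were found by gene symbol, and each symbol matched 1 gene. Homeostatic chemokines are made by stromal cells without infection, and they hold leukocytes in place or sort them into compartments. Cxcl12 binds Cxcr4, which retains haematopoietic and lymphoid cells in bone marrow and tissue, and it also binds Ackr3, a scavenging receptor that removes the ligand. Cxcl13 draws cells bearing Cxcr5, mainly B cells, into follicles and into lymphoid aggregates of inflamed organs. Gpr183 (EBI2) is no chemokine receptor. It reads an oxysterol made by Ch25h and Cyp7b1, and it works with Cxcr5 in placing B cells.

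The study profiled non-parenchymal liver cells of male C57BL/6J mice that were 8 weeks old at the start. The series was made to examine uPAR, the receptor encoded by Plaur. Chow mice ate regular diet for 12 or 24 weeks. FAT-MASH mice had for the same times a Western diet (21.1% fat, 41% sucrose, 1.25% cholesterol), sugar water with 23.1 g/L fructose and 18.9 g/L glucose, and weekly intraperitoneal carbon tetrachloride. This gave 4 libraries, 1 per group, called here 12-week chow, 12-week MASH, 24-week chow and 24-week MASH. Diet and carbon tetrachloride came together, so their shares cannot be told apart. Each group was 1 library, so no comparison has a test or a p-value, and differences are given as ratios with exact 95% intervals that cover counting error only. The livers stood overnight on ice before digestion and Percoll enrichment in every group, so the number of cells of a class describes the suspension and not the organ.

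After filtering, 18436, 17225, 27291 and 19953 cells passed (12-week chow, 12-week MASH, 24-week chow, 24-week MASH, the order used for all such series of values), and 16244, 15148, 20783 and 17832 were kept after doublet removal. Median counts of unique molecular identifiers (UMIs, 1 per captured molecule) per kept cell were 1977.5, 3065, 2044 and 3206, so the MASH libraries were deeper per cell at both weeks. Doublet removal took 23.8% of the 24-week chow cells but 10.6% to 12.1% in the other libraries. The 3 libraries whose barcodes could be matched shared between 376 and 513 cell barcodes pairwise. Hashtag antibodies split the cells further, 3 in use at 12 weeks and 8 at 24 weeks. What each hashtag stands for is not given in the labels, so spreads over hashtags describe the cells inside 1 library and are not replicates. Levels are given in CPM, the gene's UMIs in a library or class over all UMIs there. Cell classes carry the suffix -like because they were named from marker genes.

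Over all kept cells, both ligands were higher in the MASH library at both weeks, while no receptor differed by 2-fold or more. Cxcl13 stood at 0.605, 12.0, 0 and 5.49 CPM, from 26, 784, 0 and 479 UMIs. Cxcl12 stood at 2.0, 10.1, 1.88 and 3.46 CPM, from 86, 660, 105 and 302 UMIs. Both ligands were thus lowest in the 2 chow libraries and highest in the 12-week MASH library. For Cxcl12 MASH over chow gave 5.05 (4.03 to 6.40) in the 12-week pair and 1.84 (1.47 to 2.33) in the 24-week pair. Averaging each cell's own fraction turned the 24-week Cxcl12 ratio to 0.829. For Cxcl13 it gave 19.8 (13.4 to 30.6) at 12 weeks and at least 102-fold at 24 weeks, taken against a floor of 3 counts in the chow library. The 24-week bound depends on doublet removal, because with every cell that passed the filter the 24-week chow library held 164 Cxcl13 UMIs and the ratio was 2.69.

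Among the receptors, Cxcr4 stood at 111, 142, 148 and 87.4 CPM, higher in MASH at 12 weeks (1.28, 1.24 to 1.33) and lower at 24 weeks (0.591, 0.572 to 0.609). Cxcr5 stood at 18.1, 15.5, 36.7 and 21.8 CPM, lower in the MASH library at both weeks, with ratios of 0.857 and 0.593. Gpr183 stood at 97.0, 99.5, 72.9 and 64.0 CPM, with ratios of 1.02 (0.986 to 1.07) and 0.878 (0.843 to 0.914). The latter was 1.06 with only the chow cells of hashtags 5 to 8 set against all MASH cells. These library-wide receptor levels mix the makeup of the suspension with the level inside each class: B-like cells gave 78.5%, 73.9%, 83.7% and 76.1% of all Cxcr5 UMIs. Ackr3, at 7.58, 10.6, 3.15 and 2.80 CPM, had ratios of 1.40 (1.23 to 1.61) and 0.889 (0.729 to 1.09), and the second interval includes 1. At 12 weeks 2 of the 6 genes were at least 2-fold higher in MASH and none was 2-fold lower, against 9.99% and 3.65% of the 16980 genes with at least 20 UMIs in the 2 libraries together. At 24 weeks 1 of 6 was 2-fold higher and none lower, against 14.9% and 4.2% of 17805 genes.

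**Figure D1:**
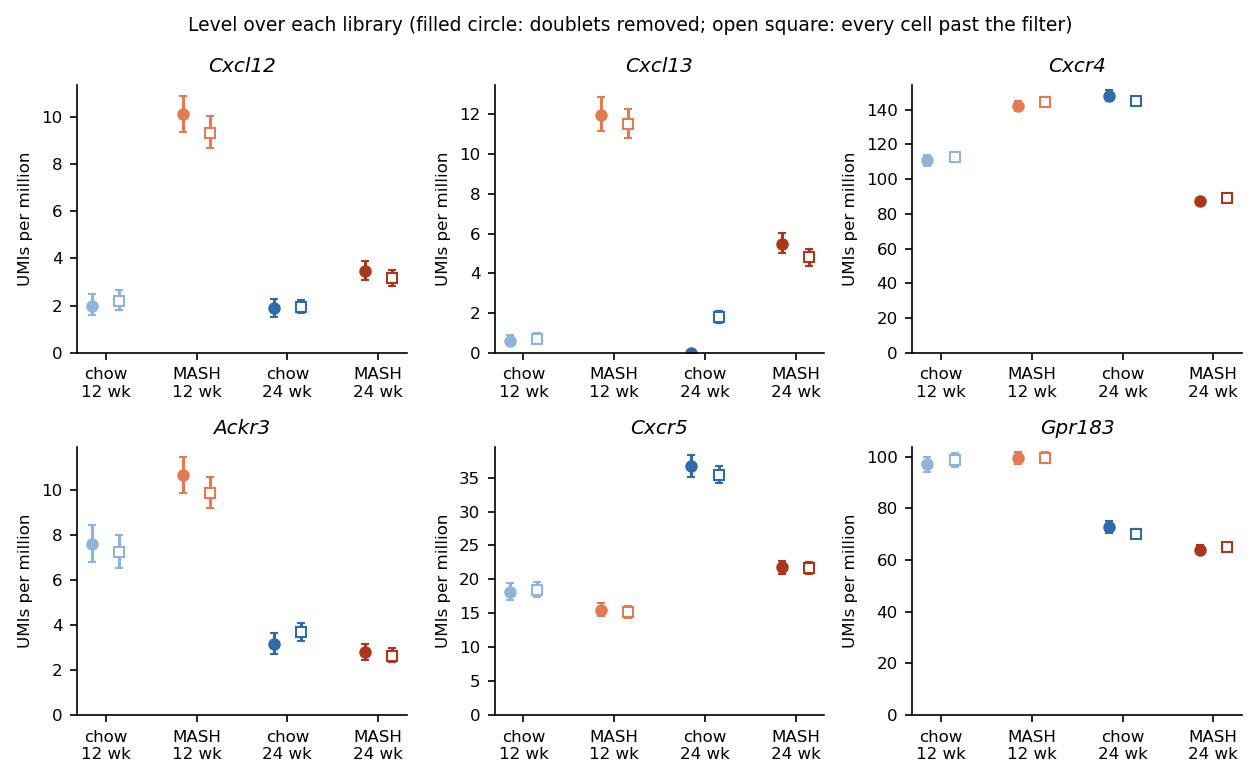
Level of each of the 6 genes in each library, in CPM on a linear axis from 0, with exact 95% Poisson intervals, where filled circles are kept cells and open squares all cells past the filter. Cxcl12 and Cxcl13 sit higher in MASH than in chow at both weeks (Cxcl13 0.605 against 12.0 CPM in kept cells at 12 weeks), while Cxcr4 is higher in MASH at 12 weeks and lower at 24 weeks.

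The ligand genes are shown with the 250 bases before their start because these windows differ in core promoter letters, although both transcripts were found in the same stromal classes. Cxcl12 (ENSMUSG00000061353) spans chr6:117168535-117181367 on the plus strand of GRCm38 and Cxcl13 (ENSMUSG00000023078) spans chr5:95956951-95961068, also on the plus strand. Both are protein-coding, and neither overlaps another annotated gene. The sequences come from RefSeq (GRCm38.p6), at chr6:117168285-117168534 and chr5:95956689-95956938, plus strand. They are counted from the RefSeq start, and for Cxcl13 the window therefore ends a few bases short of the gene start given above. Capitals mark GGGCGG or its reverse complement (a GC box) in the first, and the TATAAA motif in the second. Both strands of both windows were searched for both motifs.
Cxcl12: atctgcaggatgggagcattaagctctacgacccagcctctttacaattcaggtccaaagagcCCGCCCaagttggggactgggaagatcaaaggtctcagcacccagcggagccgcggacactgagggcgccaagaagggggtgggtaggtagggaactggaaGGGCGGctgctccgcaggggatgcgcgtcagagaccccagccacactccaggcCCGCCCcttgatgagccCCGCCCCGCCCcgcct
Cxcl13: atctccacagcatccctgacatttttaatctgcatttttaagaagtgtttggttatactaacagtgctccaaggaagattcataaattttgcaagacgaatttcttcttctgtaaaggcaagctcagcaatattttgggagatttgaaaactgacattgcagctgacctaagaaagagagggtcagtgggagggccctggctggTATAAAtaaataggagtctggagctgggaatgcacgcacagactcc

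The Cxcl12 window held GGGCGG 5 times, 1 on the plus strand and 4 on the minus strand, of which the 2 nearest the start share a base, and no TATAAA. The Cxcl13 window held TATAAA at 46 to 41 bases before the RefSeq start, on the plus strand, and no GGGCGG. Among 32851 RefSeq promoter windows of the same length, 12.4% held TATAAA and 32.7% held GGGCGG. These matches describe the letters and were not tested for function.

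Cxcl13 transcripts came from very few cells. Kept cells with at least 1 Cxcl13 UMI numbered 5, 62, 0 and 47. In the 12-week MASH library 3 cells held more than 50% of its 784 UMIs, and the richest held 198 (25.3%). In the 24-week MASH library 1 cell held 277 of 479 UMIs (57.8%), and in the 12-week chow library 1 portal fibroblast-like cell held 18 of 26 (69.2%). Counts of cells carrying the transcript are therefore given beside each CPM. Leaving out the richest cell of each library, an alternative chosen after seeing the data, moved the 12-week ratio to 48.2 and the 24-week lower bound to 43.2.

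**Figure D2:**
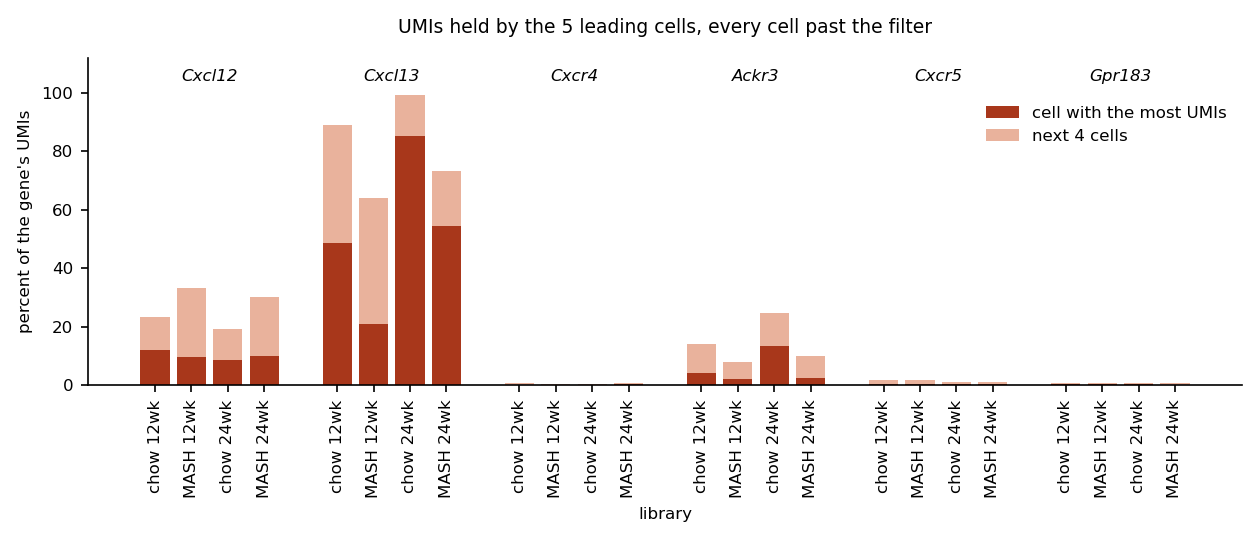
Percent of a gene's UMIs held by its richest cell (dark) and by the next 4 cells (light), for each gene and library, over all cells past the filter. For Cxcl13 the richest cell holds 48.6%, 20.8%, 85.4% and 54.5%, while for Cxcr4, Cxcr5 and Gpr183 it holds under 0.5% in every library.

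Most Cxcl13 UMIs in the MASH libraries lay in clusters bearing markers of mesothelium, the lining of the liver surface. These 5 clusters (41 to 44 and 46, 375 kept cells) are counted together here as mesothelial-marker cells. Of the 6 mesothelial markers all 6 were found in at least 10% of the 375 cells, among them Upk3b (82.4%), Wt1 (79.7%) and Msln (63.7%). Markers of other mesenchymal cells were present too, 5 of 9 on the portal fibroblast list (Col3a1 in 87.7%, Col1a1 in 73.6%, Clec3b in 63.2%) and 5 of 9 on the stellate list (Ecm1 in 81.3%, Hand2 in 32.8%, Des in 21.6%), while the stellate markers Lrat and Reln (0.267% each) and Rgs5 (0.533%) were near 0. The part of these other markers in the Cxcl13 level was not tested. The mesothelial-marker cells numbered 33, 219, 8 and 115 kept cells. Cxcl13 was found in 1, 30, 0 and 34 of them, with 1, 661, 0 and 443 UMIs, which is 84.3% of the library's Cxcl13 UMIs in 12-week MASH and 92.5% in 24-week MASH. Their pooled level was 7.86, 240, 0 and 226 CPM. Single cells weighed on it, with 198 of the 661 UMIs and 277 of the 443 in 1 cell each, and without that cell the MASH levels were 169 and 85.2 CPM. Clusters 41 and 43 held no kept chow cell, and with them left out the 12-week levels were 7.86 against 7.10 CPM, a ratio of 0.903 (0.121 to 40.1) from 1 against 8 UMIs. The 12-week difference in these cells thus lay in clusters that the chow library did not have. The 8 kept chow cells at 24 weeks cannot set a level.

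Doublet calling removed mesothelial-marker cells unevenly between libraries. Of cells with at least 5 mesothelial-marker UMIs, the share removed was 18.6% (8 of 43), 22.6% (64 of 283), 81.4% (35 of 43) and 11.5% (17 of 148). Of the 35 cells removed from 24-week chow, 11 carried a single hashtag. With removed cells put back, the class held 45, 291, 46 and 134 cells and its Cxcl13 level was 5.17, 210, 484 and 204 CPM. The 24-week chow value then came from 162 UMIs, and 1 cell, called a doublet, held 140 of the 164 Cxcl13 UMIs in that library (85.4%). Cells of any class with a Cxcl13 UMI numbered 8, 79, 6 and 56 in this wider set. This number stayed higher in MASH at both weeks, while by CPM of the class the 24-week order turned. The number is neither thinned nor a share, and MASH libraries were deeper and held more mesothelial-marker cells.

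Within the mesothelial-marker cells, Cxcl13 lay mainly in cluster 43. Its leading genes were collagens and stromal genes (Col1a1, Col3a1, Timp1, Col1a2) together with Cxcl13 and Ccl19, which go against a mesothelial name, so the cluster is called by its number. All 6 mesothelial markers were found in at least 10% of its 85 cells, from Msln in 27.1% to Wt1 in 91.8%, and so were 7 of 9 portal fibroblast markers, with Col3a1 in every cell, and 4 of 9 stellate markers. The mesothelial markers together stood at 1418 CPM in cluster 43 against 2915 to 4448 CPM in the other 4 clusters, and the portal fibroblast markers at 9524 against 972 to 5231 CPM. Most of the 9524 came from the collagens Col3a1 (5761) and Col1a1 (3242). Dpt, Mfap4 and Pi16 were found in 16.5%, 14.1% and 5.88% of cluster 43, against 91.9%, 55.6% and 68.7% of portal fibroblast-like cells. Entpd2 was closer, at 69.4% against 75.8%. The 6 genes of these axes were kept out of the clustering, so Cxcl13 did not form this cluster. It was found among the leading genes afterwards, and its level there is a description. Cluster 43 held 63 cells in 12-week MASH and 22 in 24-week MASH, and no kept chow cell. It carried 644 Cxcl13 UMIs in 17 cells at 12 weeks (82.1% of the library's) and 364 in 9 cells at 24 weeks (76.0%). Cluster 41, led by Gpc3, Cpe and the complement genes C4b and C3, had 9 UMIs in 5 of 26 cells at 12 weeks and 66 UMIs in 17 of 63 cells at 24 weeks. The other mesothelial-like clusters held 1, 8, 0 and 13 UMIs over 33, 130, 8 and 30 cells. Clusters 41 and 43 were thus found only in MASH libraries among kept cells. Without doublet removal cluster 43 also took 4 chow cells at 24 weeks and cluster 41 took 9, all called doublets.

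Hashtags split the mesothelial-marker signal unevenly. Among cells with a single hashtag, in the 12-week MASH library its Cxcl13 UMIs carried 2 of the 3 hashtags, and in 24-week MASH all 8, with 71.0% on 1 of them. Over all kept cells the 3 hashtags of 12-week MASH stood at 0.324, 21.6 and 21.6 CPM for Cxcl13.

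Outside the mesothelial-marker cells, Cxcl13 was found in portal fibroblast-like cells and in macrophages. Portal fibroblast-like cells (Clec3b, Dpt and Pi16 with no Msln or Upk3b) numbered 50, 48, 0 and 1 kept cells. Their Cxcl13 level was 78.9 CPM in 12-week chow (18 UMIs in 1 cell) and 115 CPM in 12-week MASH (40 UMIs in 5 cells), a ratio of 1.46 whose interval of 0.817 to 2.70 includes 1. Peritoneal or capsular macrophage-like cells, named from Prg4, Alox15 and like genes, held 44 Cxcl13 UMIs in 5 of 156 cells of 12-week MASH. Monocyte/macrophage-like cells held 7, 27, 0 and 24 UMIs in 3, 11, 0 and 3 cells, and the 12-week ratio was 0.862 (0.366 to 2.34). Cluster 21, which made up 18.5% and 33.9% of the class at 12 weeks, held 7 of 7 and 26 of 27 of these UMIs, and its own ratio was 0.347 (0.147 to 0.948).

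Cxcl12 had a broader set of sources. In both MASH libraries the largest part came from mesothelial-marker cells, with 402 UMIs in 38 cells at 12 weeks (60.9% of the library's) and 129 UMIs in 31 cells at 24 weeks (42.7%), and no UMI in the 33 and 8 kept chow cells. Their pooled levels were 0, 146, 0 and 65.7 CPM. Again cluster 43 led, at 297 CPM (389 UMIs in 33 cells) and 215 CPM (107 UMIs in 15 cells). With removed cells put back, chow mesothelial-marker cells held 0 and 1 Cxcl12 UMIs over 45 and 46 cells, and MASH ones 477 and 130. At 24 weeks the 8 kept chow cells with 0 UMIs allow up to 78.0 CPM, so no order is read there from kept cells.

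The hashtags of 12-week MASH differed here as well. Over all kept cells they stood at 3.37, 3.63 and 17.0 CPM for Cxcl12, and 1 hashtag held 72.6% of the assigned Cxcl12 UMIs. The 3 hashtags of 12-week chow stood at 0.966 to 1.41 CPM, so the 2 sets did not overlap, but the share of all genes separating in this way is not given here. At 24 weeks the 8 chow hashtags ran from 0.678 to 2.14 CPM and the 8 MASH ones from 0.862 to 7.10 CPM, and these overlapped.

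Portal fibroblast-like cells were the other mesenchymal source at 12 weeks. They held 32 Cxcl12 UMIs at 12 weeks in chow and 93 in MASH, each in 19 cells, at 140 and 267 CPM, a ratio of 1.91 (1.26 to 2.95). With removed cells put back the 12-week levels lay closer, at 178 and 228 CPM from 50 and 102 UMIs. In chow 1 cell then held 14 of the 50. All 13 such cells of 24-week chow were called doublets. They held 29 Cxcl12 UMIs at 291 CPM, so this class had no kept chow cells to compare at 24 weeks. Hepatic stellate-like cells, the resident pericytes known for Cxcl12, were almost missing from the suspensions, with 0, 2, 0 and 4 kept cells. Those 6 cells nonetheless held 65 UMIs in 12-week MASH (9.85% of the library's Cxcl12) and 50 in 24-week MASH (16.6%), and Cxcl12 was among the genes that set their cluster apart.

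Hepatocyte-like cells left after enrichment gave a low but broad Cxcl12 signal of 20.7, 20.9, 26.3 and 13.7 CPM (35, 15, 76 and 22 UMIs). They made up 40.7% of Cxcl12 UMIs in 12-week chow and 72.4% in 24-week chow, but 2.27% and 7.28% in the MASH libraries. Here the 12-week ratio was 1.01 (0.512 to 1.89), and the 24-week ratio was 0.521 (0.309 to 0.847). In vascular endothelial-like cells the level was 3.59, 17.0, 13.8 and 29.2 CPM, a ratio of 4.74 (1.42 to 24.8) from 3 against 21 UMIs at 12 weeks and 2.12 (0.903 to 5.78) from 7 against 27 at 24 weeks. At 12 weeks the 21 UMIs came from 4 cells, and at a coarser clustering (Leiden resolution 1) the 12-week ratio was 0.959. Cluster 34, 17.1% and 42.7% of the class at 24 weeks, held 7 of the 7 chow and 24 of the 27 MASH UMIs, and its own 24-week ratio was 0.682 (0.285 to 1.87). Its 12-week ratio was 19.1 (3.08 to 791), from 1 against 21 UMIs. In this class 3.22% of genes at 12 weeks and 6.75% at 24 weeks were at least 2-fold higher. Cholangiocyte-like cells, the bile duct lining, held 0, 20, 0 and 37 UMIs in 65, 184, 45 and 560 cells, so that MASH stood at least 1.64-fold (12 weeks) and at least 1.91-fold (24 weeks) over the floor of the chow library. The 24-week chow and MASH cells of this class were almost wholly in different clusters (44 of 45 in cluster 39 and all 560 in cluster 25), so the comparison is between cells of different profile.

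**Figure D3:**
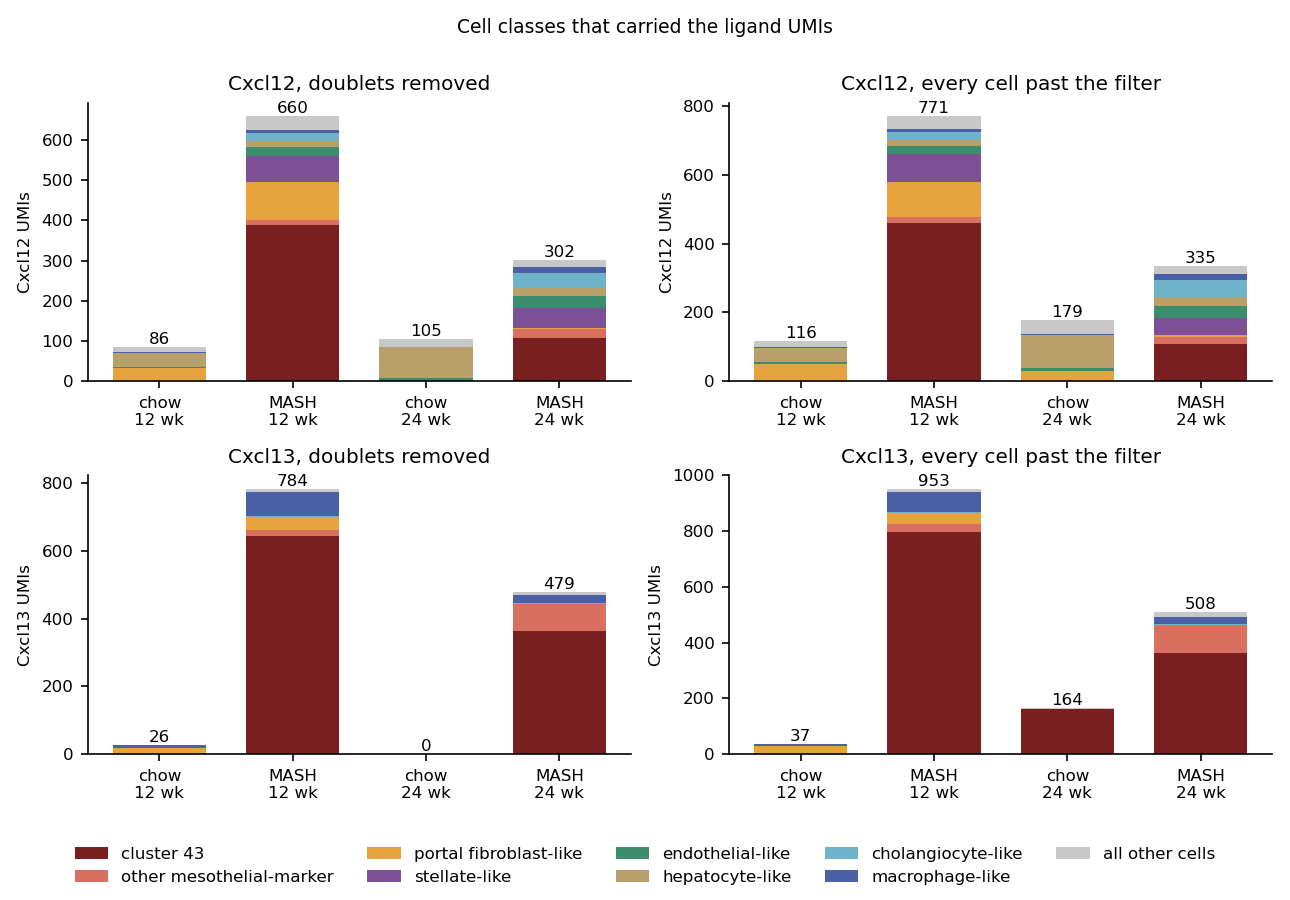
UMIs of each ligand in each library, as stacked bars by cell class with the total above each bar, for kept cells (left) and for all cells past the filter (right). Mesothelial-marker cells make up most of Cxcl13 in the MASH libraries in both sets (84.3% and 92.5% of kept UMIs), mainly through cluster 43, drawn apart, and the 24-week chow library has 0 Cxcl13 UMIs in kept cells against 164 in all cells.

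The 2 ligands shared cells as well as classes. In 12-week MASH, 13 of 30 mesothelial-marker cells with Cxcl13 also had Cxcl12 (43.3%, 25.5% to 62.6%), against 25 of 189 without it (13.2%, 8.75% to 18.9%). In 24-week MASH the shares were 14 of 34 (41.2%, 24.6% to 59.3%) and 17 of 81 (21.0%, 12.7% to 31.5%), and these intervals overlapped. Cells with Cxcl13 were also deeper, with median UMIs of 13525 against 8253 and 15707.5 against 11285. Cluster 43 led for both ligands by UMIs. The parts of depth and of cluster in the difference were not tested.

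Ackr3 stood highest at 12 weeks in portal fibroblast-like, lymphatic endothelial-like and, with clusters 41 and 43 left out, mesothelial-like cells. With those clusters it was 69.1 CPM in the mesothelial-marker cells of 12-week MASH, under the 85.1 CPM of vascular endothelial-like cells. In portal fibroblast-like cells it stood at 530 CPM in 12-week chow and 394 CPM in 12-week MASH (0.743, 0.577 to 0.957). In lymphatic endothelial-like cells it stood at 472 and 291 CPM at 12 weeks (0.615, 0.439 to 0.861), from 62 and 48 cells, and the 19 chow cells at 24 weeks held 945 CPM, with 1 cell holding 25.6% of the whole library's Ackr3 UMIs. In mesothelial-like cells without clusters 41 and 43 it was lower in MASH, at 314 against 132 CPM (0.421, 0.295 to 0.612), in a class where 8.11% of genes were at least 2-fold lower. All 3 of these classes had less Ackr3 in the 12-week MASH library.

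Endothelial cells of the blood side went the other way at 12 weeks. Vascular endothelial-like cells stood at 58.6, 85.1, 66.8 and 58.5 CPM, with ratios of 1.45 (1.03 to 2.08) and 0.875 (0.559 to 1.39). Sinusoidal endothelial-like cells, the fenestrated lining of the liver capillaries, stood at 5.07, 16.5, 12.2 and 39.9 CPM from 11, 43, 9 and 38 UMIs. They were about as much higher in MASH at both weeks, by 3.25 (1.65 to 6.98) and 3.26 (1.55 to 7.68), in a class where 2.13% of genes at 12 weeks and 3.05% at 24 weeks were at least 2-fold higher. Cholangiocyte-like cells were lower in MASH at 24 weeks (0.112, 0.0609 to 0.204), beside 7.06% of genes at least 2-fold lower, again between different clusters.

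Cxcr4 was found in every leukocyte class. In B-like cells, the largest contributor, it stood at 295, 336, 289 and 175 CPM. In T-like cells it stood at 71.9, 161, 57.5 and 62.6 CPM, and in neutrophil-like cells at 243, 355, 539 and 420 CPM. The 12-week MASH library was the higher of its pair in all 3 classes, and the 24-week MASH library was the lower in B-like and neutrophil-like cells.

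The Cxcr4 ratio lay above 1 in most classes at 12 weeks and below 1 in most at 24 weeks. Both intervals lay away from 1, on opposite sides, only in B-like, NK- or ILC1-like, basophil- or mast-like, conventional dendritic-like and neutrophil-like cells. Such counts of classes are not given here for other genes. At 12 weeks 15 named classes had enough UMIs, the ratio was above 1 in 12 of them, the interval lay above 1 in 9, and in none did it lie below 1. At 24 weeks it was below 1 in 13 of 15, the interval lay below 1 in 8 and above 1 in 1, the vascular endothelial-like cells (4.17, 1.89 to 10.9). There, 1 cell held 17 of the 53 MASH UMIs, and without doublet removal the ratio was 0.852. T-like cells had the largest 12-week ratio, 2.24 (2.03 to 2.47), and 1.09 (0.977 to 1.21) at 24 weeks. B-like cells had 1.14 (1.08 to 1.20) and 0.603 (0.574 to 0.634). The 5 T-like clusters compared at 12 weeks ran from 0.832 to 3.16, 4 of them above 1. The makeup differed as well, with cluster 4 giving 48.6% of T-like cells, cluster 16 included, in chow and 21.0% in MASH, and cluster 3 giving 16.8% and 36.4%. At 12 weeks only T-like cells passed 2-fold, in a class where 3.44% of genes were at least 2-fold higher. At 24 weeks 1 class was at least 2-fold higher, the vascular endothelial-like cells, beside 6.75% of genes there, and 2 classes were at least 2-fold lower. The difference between weeks was not tested, and the 2 weeks are separate libraries with separate preparation.

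Plasmacytoid dendritic-like cells, which make type I interferon, stood at 83.8 against 39.1 CPM at 24 weeks (0.467, 0.361 to 0.600), beside 2.58% of genes at least 2-fold lower in that class. Mature dendritic-like cells stood at 0.427 (0.225 to 0.876), but from 20 chow cells and beside 10.8% of genes at least 2-fold lower. Monocyte/macrophage-like cells stood at 115, 115, 137 and 69.4 CPM, with ratios of 0.993 (0.853 to 1.16) and 0.507 (0.443 to 0.583). Their makeup also differed, since cluster 21 gave 83, 416, 14 and 737 of their cells. NK- or ILC1-like cells stood at 76.6, 123, 48.0 and 35.1 CPM (1.61 and 0.730), and basophil- or mast-like cells at 135, 243, 167 and 85.7 CPM (1.79 and 0.512).

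Clusters and hashtags within the libraries bear on these values. All 7 B-like clusters compared at 24 weeks had a ratio below 1, from 0.445 to 0.688, so the lower level was not set by 1 cluster. At 12 weeks 4 of 6 were above 1, from 0.650 to 1.19. Cluster 0, led by the heat shock genes Hspa1b and Hspa1a, held 0.295%, 0.847%, 46.1% and 33.8% of B-like cells, so it was a 24-week cluster in the main, and the part of these heat shock genes in the Cxcr4 levels was not tested. Over hashtags, B-like Cxcr4 ran from 284 to 306 CPM in 12-week chow and 308 to 377 CPM in 12-week MASH. At 24 weeks it ran from 257 to 341 CPM in chow and 126 to 227 CPM in MASH. Chow and MASH hashtags did not overlap at either week, though at 12 weeks only 306 against 308 CPM parted them. How many of all genes separate in this way is not given here. T-like cells, cluster 16 included, ran from 62.5 to 85.2 and 159 to 183 CPM at 12 weeks, and from 43.7 to 81.4 and 50.9 to 96.4 CPM at 24 weeks, where they overlapped. In NK- or ILC1-like cells of 24-week chow, hashtags 1 to 4 stood at 15.1 to 36.5 CPM and hashtags 5 to 8 at 63.3 to 125 CPM, without overlap inside this 1 library. With only the chow cells of hashtags 1 to 4 set against all MASH cells of the class, the 24-week ratio was 1.40. The 2 NK- or ILC1-like clusters had 24-week ratios of 0.612 and 1.18.

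**Figure D4:**
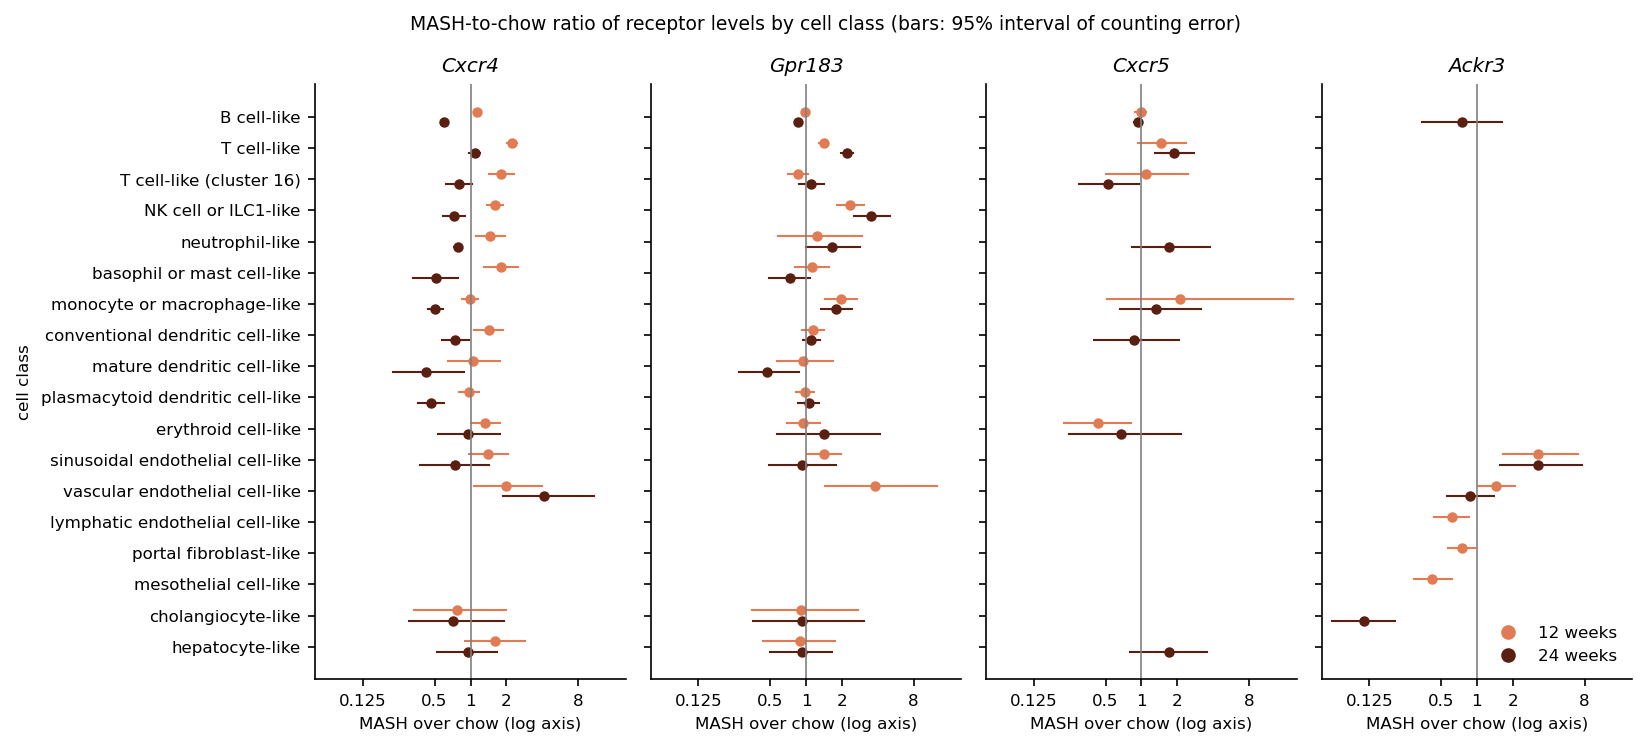
Ratio of MASH to chow for each receptor in each named class with enough UMIs, at 12 weeks (light) and 24 weeks (dark), on a log axis with exact 95% intervals of counting error. Cxcr4 ratios lie mostly above 1 at 12 weeks (2.24 in T-like cells) and mostly below 1 at 24 weeks (0.603 in B-like cells), and Gpr183 lies above 1 at both weeks in NK- or ILC1-like cells.

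The share of cells with a Cxcr4 UMI, after each cell was thinned to 1000 UMIs, followed the CPM in B-like cells. It was 25.3%, 28.2%, 23.7% and 15.7% (33.4%, 45.4%, 38.1% and 30.4% before thinning), with 1043, 732, 851 and 277 cells too shallow to enter. In T-like cells it was 7.32%, 15.3%, 6.14% and 5.85% (16.5%, 37.1%, 13.8% and 17.9% before), with 109, 75, 145 and 76 left out. Hepatocyte-like cells, which should lack the gene, gave 0.784%, 0.995%, 1.13% and 0.242% thinned (1.94%, 3.30%, 1.76% and 2.58% before), at median depths of 833, 961.5, 1009 and 1425 UMIs against 1536, 2229, 1761 and 2445 in B-like cells. Neutrophil-like cells numbered 153, 273, 1444 and 1505 kept cells and held 1.30%, 3.14%, 16.5% and 23% of all Cxcr4 UMIs.

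Cxcr5, the Cxcl13 receptor, was a B-like transcript in all 4 libraries. B-like cells stood at 78.9, 77.6, 110 and 102 CPM, so that chow and MASH were close, with ratios of 0.983 (0.883 to 1.10) and 0.929 (0.866 to 0.997). Hashtag levels in these cells ran from 70.0 to 83.7, 71.4 to 86.8, 97.9 to 138 and 94.6 to 114 CPM, overlapping between diets at each week. Thinned shares of B-like cells with a Cxcr5 UMI were 7.51%, 7.55%, 10.3% and 9.99% (11.2%, 15.3%, 18.5% and 22.8% before). The library-wide ratio of 0.593 at 24 weeks thus sat beside a B-like ratio near 1 and fewer B-like cells in MASH (5181 against 7767).

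T-like cells held little Cxcr5, at 3.96, 5.81, 3.80 and 7.15 CPM, with ratios of 1.47 (0.929 to 2.35) and 1.88 (1.29 to 2.75). Their thinned share was 0.389%, 0.450%, 0.344% and 0.654%, against 0.196%, 0.498%, 0.411% and 0.242% in hepatocyte-like cells. The T-like share was the higher in 12-week chow and in the last library listed, and the lower elsewhere. Whether it was background was not tested. Before thinning these shares were 1.09%, 2.0%, 1.02% and 2.39% in T-like cells and 0.521%, 0.472%, 0.879% and 2.10% in hepatocyte-like cells, with median depths of 2595, 3411, 2652 and 3292.5 UMIs in T-like cells. The T-like cells of cluster 16 stood higher, at 13.8, 14.9, 22.0 and 11.6 CPM, with ratios of 1.09 (0.508 to 2.47) and 0.528 (0.300 to 0.957). Erythroid-like cells also gave Cxcr5 UMIs, at 30.6, 13.2, 37.9 and 25.8 CPM from 22, 20, 6 and 14 UMIs, with a 12-week ratio of 0.430 (0.222 to 0.825) beside 6.32% of genes at least 2-fold lower. In monocyte/macrophage-like cells 2 against 19 UMIs gave a 12-week ratio of 2.12 (0.512 to 18.8), beside 7.71% of genes at least 2-fold higher. Cxcr5 (chr9:44511787-44561877, minus strand) overlaps Bcl9l on the other strand.

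Gpr183, which lets B cells and T cells follow oxysterols to the edges of lymphoid zones, was higher in MASH at both weeks in T-like and in NK- or ILC1-like cells. NK- or ILC1-like cells stood at 26.2, 61.2, 11.6 and 40.9 CPM, with ratios of 2.33 (1.81 to 3.04) and 3.54 (2.52 to 5.09). These values depend on doublet removal. With removed cells put back the class stood at 44.2, 68.5, 32.3 and 47.2 CPM, higher in MASH but under 2-fold at both weeks. In that class 2.26% of genes at 12 weeks and 3.18% at 24 weeks were at least 2-fold higher. Its 2 clusters had ratios of 0.811 and 2.55 at 12 weeks and of 1.51 and 3.59 at 24 weeks, and cluster 8 made up 46.2% of the class in chow and 83.9% in MASH at 24 weeks. T-like cells stood at 89.3, 126, 33.0 and 72.6 CPM, with ratios of 1.41 (1.28 to 1.55) and 2.20 (1.95 to 2.49), beside 3.65% of genes at least 2-fold higher at 24 weeks. All 4 T-like clusters compared at 24 weeks had a ratio above 1, from 1.20 to 4.21. At 12 weeks 2 of 5 were above 1 and 3 below, from 0.668 to 1.82.

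Hashtag levels did not overlap between diets in NK- or ILC1-like cells at either week, nor in T-like cells at 24 weeks. The share of all genes separating in this way is not given here, so these ranges describe the libraries only. NK- or ILC1-like cells ran from 17.9 to 21.9 CPM in chow and 46.9 to 77.5 CPM in MASH at 12 weeks, and from 0 to 13.0 and 19.5 to 61.1 CPM at 24 weeks. T-like cells, cluster 16 included, ran from 23.5 to 47.1 CPM in chow and 67.2 to 98.0 CPM in MASH at 24 weeks. At 12 weeks the T-like hashtags overlapped, at 81.3 to 118.5 and 115 to 154 CPM. Cluster 16 alone stood at 202, 173, 93.4 and 103 CPM, with both intervals including 1.

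Monocyte/macrophage-like cells were also higher in Gpr183 at both weeks, at 26.6, 52.0, 27.6 and 49.1 CPM (1.95, 1.44 to 2.69, and 1.78, 1.34 to 2.42). With removed cells put back they stood closer together, at 48.7, 60.2, 44.2 and 53.2 CPM. Their clusters had ratios from 1.12 to 3.11 at 12 weeks and from 1.55 to 2.21 at 24 weeks. B-like cells, which held 44.2%, 35.0%, 62.5% and 35.4% of Gpr183 UMIs, stood at 238, 235, 163 and 140 CPM, with ratios of 0.988 (0.929 to 1.05) and 0.858 (0.809 to 0.910). Of the classes with enough UMIs the interval lay above 1 in 5 of 15 at 12 weeks and 3 of 14 at 24 weeks, and below 1 in 0 and 2. Gpr183 (chr14:121952551-121965195, minus strand) overlaps Ubac2 on the other strand, and Cxcr4 (chr1:128588199-128592293, minus strand) and Ackr3 (chr1:90203980-90216751, plus strand) overlap no other gene.

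**Figure D5:**
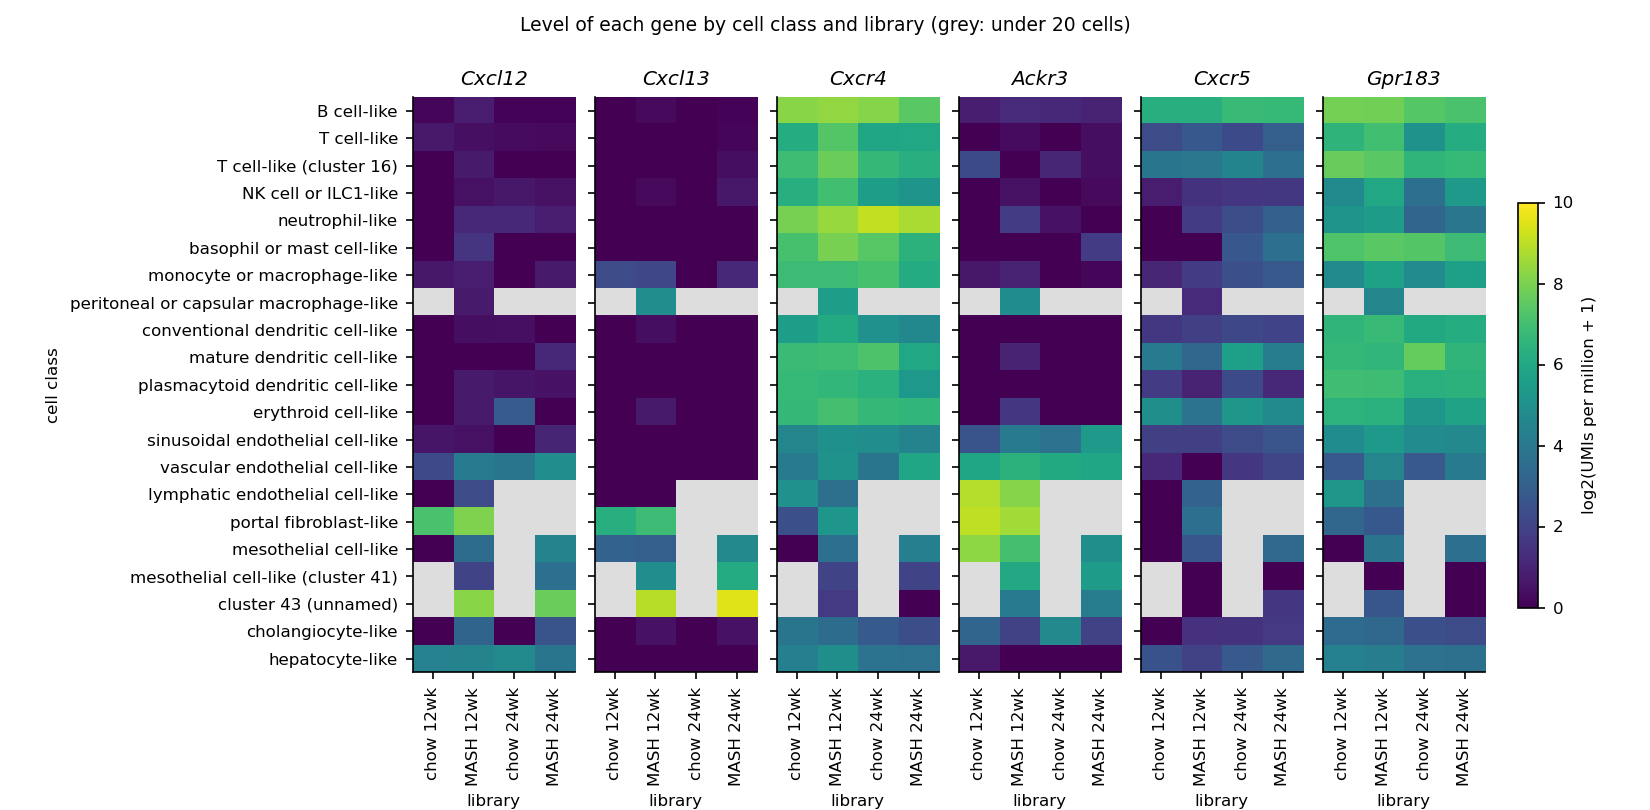
Level of each gene in each named class and library, as log2(CPM + 1) by colour, with grey where a class had under 20 cells. Cxcr5 is highest in B-like cells in every library, and Cxcr4 and Gpr183 spread over leukocyte classes. In 12-week MASH Cxcl12 reaches 297 CPM in cluster 43 and 267 CPM in portal fibroblast-like cells, while in 24-week chow hepatocyte-like cells hold 26.3 CPM of it and Cxcl13 is at 0.

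Counted over the named classes together, 46 pairs of gene and class had enough UMIs at 12 weeks, of which 6 were at least 2-fold higher in MASH and 2 at least 2-fold lower. Across all genes in the same classes the shares were 4.93% and 3.7%. At 24 weeks 5 of 45 pairs were 2-fold higher and 4 lower, beside 7.54% and 3.72%. In kept cells, Gpr183 in NK- or ILC1-like cells and Ackr3 in sinusoidal endothelial-like cells were past 2-fold higher at both weeks. So was Cxcl12 in vascular endothelial-like cells, whose 24-week interval includes 1. Their cluster 34 alone gave Cxcl12 ratios of 19.1 at 12 weeks, from 1 against 21 UMIs, and 0.682 at 24 weeks. With removed cells put back, Gpr183 in NK- or ILC1-like cells was under 2-fold at both weeks, while the other pairs stayed past it. No pair was 2-fold lower at both weeks.

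A list of 40 other genes of these pathways was read beside them. Over all kept cells 3 were at least 2-fold higher and 1 lower at 12 weeks, and 6 higher and 2 lower at 24 weeks, against 9.99% and 3.65%, then 14.9% and 4.2%, of all genes, with median log2 ratios of 0.01 and 0.10 beside -0.02 and 0.06 for all genes. Those higher at both weeks were Grk3, a kinase that silences activated receptors (2.17 and 2.47), and the chemokines Ccl19 (11.7 and 5.61) and Cxcl14 (5.76 and 116). The 24-week Cxcl14 value comes from 5 against 905 UMIs. At 24 weeks Ccr7, the receptor for Ccl19, was lower (0.475). Of the 8 lymphotoxin and TNF genes known to act upstream of Cxcl13, none passed 2-fold at 12 weeks and 1, Ltbr (2.22), at 24 weeks.

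Within classes, the pathway genes named next are those picked for passing 2-fold in the same direction at both weeks, so they stand for no group. In vascular endothelial-like cells Ch25h, which starts the synthesis, was lower (0.361 and 0.0525). In hepatocyte-like cells Cyp7b1, which completes it, was lower (0.490 and 0.154), and Hsd3b7, which degrades the ligand, was higher (3.26 and 2.35), as was Cyp27a1 (2.35 and 2.0). At least 2-fold higher or lower genes made up 5.87% and 5.09% of that class's genes at 12 weeks and 8.83% and 3.12% at 24 weeks, and 3.22% and 2.84%, then 6.75% and 4.36%, in the vascular endothelial-like cells. In NK- or ILC1-like cells the lymphotoxin gene Lta was higher (5.84 and 3.93), and in T-like cells Grk3 was higher (3.61 and 2.36). In cluster 16 Ccr7 was lower (0.428 and 0.343).

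Levels of the 6 genes were also set beside those of 14476 others over 63 class and library combinations, as a description, since the points share libraries and depth. The genes most like Cxcl13 were Pdgfra, Gpx3 and Cpz (Pearson r of 0.872, 0.865 and 0.857), and those most like Cxcl12 were Serpina3n, L3hypdh and Col5a3 (0.831, 0.823 and 0.812). For Ackr3 they were Cachd1, Prrg3 and Pmp22 (0.908, 0.906 and 0.905). Cxcr5 went with the B cell genes Pax5, Cd79b and Ighd (0.885, 0.882 and 0.876). Cxcr4 went with Stk17b, Nfkbid and Btg1 (0.918, 0.904 and 0.903), and Gpr183 with Cd69, Dock10 and P2ry10 (0.863, 0.861 and 0.851).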

How the data were processed

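The authors deposited raw UMI counts per gene and barcode from 10x Genomics 5′ libraries. Per the file headers they were made with Cell Ranger 5.0.1, or version 4 for the 12-week MASH library. The submitters' processing notes name mm10 and GRCh38 without their roles. The 12-week MASH matrix held 737280 barcodes. Its deposited barcode list could not be matched to them, and the 19091 barcodes with at least 500 UMIs were used.

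Cells were kept with at least 500 UMIs, at least 300 genes and at most 15% mitochondrial UMIs, and Scrublet doublets at its automatic threshold were removed (scanpy 1.11.5). Cells were clustered on 2000 variable genes, 30 principal components and 15 neighbours (Leiden resolution 2, 40 clusters, with the mesenchymal cells clustered again on 1000 genes at resolution 0.5) and named from 24 marker lists. Clusters 16, 41 and 43 were compared by number. Cluster 43 is not called mesothelial here, but it was counted among the mesothelial-marker cells. Counts were summed per class and library, without p-values, because a group was 1 library. Intervals were exact Poisson (CPM), binomial (ratios) and Clopper-Pearson (shares), from scipy 1.17.1. A ratio was read where the 2 libraries had at least 20 UMIs together and each at least 20 cells. The scripts were tested on simulated data. Shares of cells were thinned to 1000 UMIs.

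The text names all 6 genes, the pathway genes past 2-fold in the same direction at both weeks in a class first, and the 3 genes most alike to each by Pearson correlation of log2(CPM + 1). The members and lists were chosen with earlier results of these data known. Positions are from GENCODE on GRCm38. Alternatives were no doublet removal, single-hashtag cells, 2 sets of hashtags, per-cell fractions, other totals and Leiden resolution 1.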

Additional observations from a re-analysis of the deposited data

Results flagged for a closer look

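In 6 cases Cxcr4 differed between MASH and chow in opposite directions at 12 and 24 weeks, with each interval away from 1. Each ratio of MASH to chow is given for 12 weeks and then for 24 weeks. Over all kept cells it was 1.28 and 0.591, in B-like cells 1.14 and 0.603, and in NK- or ILC1-like cells 1.61 and 0.730. In basophil- or mast-like cells it was 1.79 and 0.512, in conventional dendritic-like cells 1.42 and 0.743, and in neutrophil-like cells 1.46 and 0.780. The difference between weeks was not tested, since each value rests on 1 library per diet. In neutrophil-like cells the makeup moved with it: cluster 32 gave 32, 54, 61 and 240 cells, at 85.6, 95.3, 198 and 174 CPM, and in cluster 7 alone the ratios were 1.79 and 0.975. In NK- or ILC1-like cells the 24-week value was 1.40 with chow hashtags 1 to 4 alone against all MASH cells. The 2 clusters of this class had 24-week ratios of 0.612 and 1.18, with cluster 8 at 46.2% of the class in chow and 83.9% in MASH. The week cannot be told apart from the library preparation.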

How the results depend on the processing

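No paired analysis was possible because each group holds 1 library. Of the values for all kept cells and the counts of pairs, 105 stayed within the limits of the main value and 44 moved out of them. Another 2, whose main interval lay away from 1, turned direction. Of the other values 642, 153 and 5 did so. A value whose main interval included 1 was never counted as turning. Ackr3 over all kept cells at 24 weeks (0.889) was such a value, and it stood above 1 in several settings given below. At 24 weeks Cxcl12 over all cells was 0.829 with per-cell fractions averaged, and Gpr183 was 1.06 with chow hashtags 5 to 8. Cxcr4 turned in NK- or ILC1-like cells (1.40) and conventional dendritic-like cells (1.05) at 24 weeks with chow hashtags 1 to 4. It also turned in erythroid-like cells at 12 weeks with per-cell fractions (0.971) and in vascular endothelial-like cells at 24 weeks without doublet removal (0.852). Cxcl12 in vascular endothelial-like cells at 12 weeks was 0.959 at Leiden resolution 1. The cause was not tested for any of these.

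With single-hashtag cells, Cxcl12 was 6.86 and 2.99 (12 and 24 weeks), Cxcl13 146 at 12 weeks and Ackr3 2.34 and 1.25, with 1 pair 2-fold lower at 12 weeks, and mesothelial-marker cells held 93.4% and 97.8% of Cxcl13 and 72.6% and 53.0% of Cxcl12 in the MASH libraries. With per-cell fractions, Cxcl12 was 1.61 and Cxcl13 6.37 at 12 weeks, Ackr3 1.11 and 1.41, and at 24 weeks Cxcr4 0.738, Cxcr5 0.740 and Gpr183 0.949. In the 2 hashtag sets only the 24-week chow cells were limited, and all MASH cells stayed, so like subsets were not compared. With chow hashtags 1 to 4 at 24 weeks, Cxcl12 was 2.58, Cxcl13 at least 38.2-fold, Cxcr4 0.646, Ackr3 1.83, Cxcr5 0.521 and Gpr183 0.753, with 2 pairs lower. With chow hashtags 5 to 8, Cxcl12 was 3.48, Cxcl13 at least 33.1-fold, Cxcr4 0.508 and Cxcr5 0.647, with 11 pairs higher and 7 lower. Without doublet removal the 24-week values were Cxcl13 2.69, Cxcr4 0.616, Ackr3 0.721 and Gpr183 0.929, with 3 pairs higher and 7 lower. Without the richest cell, chosen after seeing the data, Cxcl13 was 48.2 and at least 43.2-fold, and Ackr3 1.16 at 24 weeks. With both changes, Cxcl13 was 8.35, Cxcr4 0.616 and Gpr183 0.930. Leaving mitochondrial, ribosomal, haemoglobin and receptor genes out of totals gave Cxcr4 0.572 at 24 weeks. Leiden resolution 1 gave 3 pairs higher at 24 weeks, and no value for classes compared by number.

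Cell number limits the mesenchymal classes at 24 weeks: the kept 24-week chow library had 8 mesothelial-marker cells and no portal fibroblast-like or stellate-like cells.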
